A study of Mus musculus with 27 samples.

Results

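Committed oligodendrocyte precursors were gated in single-nucleus RNA sequencing data of mouse hippocampus as nuclei with at least 2 unique molecular identifiers (UMIs, counted RNA molecules) of Gpr17, or with 1 or more of Gpr17 together with at least 1 of Enpp6 or Bmp4. Nuclei had to have 200 to 4000 detected genes, at most 5% of UMIs from mitochondrial genes and at most 1 UMI of the neuronal genes Gad1, Gad2 and Slc17a7 in sum. Members were thus selected on their measured UMIs of these genes, whose levels are no finding. The rule took 677 of the 221281 nuclei that passed the filter, out of 241938 barcodes, or 0.306% (exact 95% interval 0.283 to 0.330%, which covers counting error only). The members carried 3321938 UMIs in all, and each of the 27 mice gave between 6 and 59 of them, with a median of 24.

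The study asked how the DNA sensor cGAS shapes the brain's response to tau, and crossed mice carrying a P301S tau transgene, driven by the prion protein promoter, with Cgas-/- mice. Tau-free groups were Cgas+/+ (5 mice, 3 male and 2 female, 122 members), Cgas+/- (2 males, 32 members) and Cgas-/- (2 males, 48 members). Tau groups were P301S Cgas+/+ (184 members), P301S Cgas+/- (131 members) and P301S Cgas-/- (160 members), each with 6 mice, 3 of them male and 3 female. Each library was 1 hippocampal sample of sorted nuclei, the tau-free groups that lack a copy of Cgas hold 2 mice each, and the labels give no age (8 to 9 months in the main text and 9 to 10 in the methods). P-values measure the spread between mice.

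Library totals ran from 46091490 to 79484316 UMIs. Any pair of libraries shared 4 to 44 barcodes, with a median of 17 over 351 pairs. Of the members, 42 had a barcode that also occurred in another library, and 0 barcodes were members in 2 libraries. File headers name Cell Ranger 3.0.2 for 12 libraries, all of males, and 3.1.0 for the other 15, of 11 females and 4 males, so version and sex overlap. The counts of the targeted gene did not fall with the labelled Cgas copies. In microglia, the mean level of Cgas (listed as Mb21d1) was 18.2 ± 4.18 CPM (counts per 1e+06 UMIs) in the libraries labelled Cgas+/+ (SD, n = 5), 13.0 ± 1.86 in Cgas+/- and 18.8 ± 5.23 in Cgas-/- (n = 2 each). It was 29.2 ± 10.5 in the libraries labelled P301S Cgas+/+, 28.9 ± 7.53 in P301S Cgas+/- and 38.2 ± 4.72 in P301S Cgas-/- (n = 6 each). Where its reads lie relative to the deleted part is not given in the sources used here, so the Cgas labels were neither borne out nor contradicted, and groups are named as labelled throughout. Members held 1 Cgas UMI in all, in the library labelled P301S Cgas-/- replicate 3, and 0 UMIs of Sting1 (listed as Tmem173), so neither gene could be compared here.

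Oligodendrocytes, the myelin-forming cells of the brain, arise throughout adult life from dividing progenitors that carry the growth factor receptor Pdgfra. On the way a progenitor passes through a brief committed stage that is marked by the receptor Gpr17, the choline phosphodiesterase Enpp6, the secreted factor Bmp4 and the early myelinating-cell protein Bcas1, and that ends when myelin genes are switched on. Gpr17 has to be switched off again for maturation to proceed, and many cells at this stage are thought to die without ever forming myelin.

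The gate was checked first against markers that it did not use. Bcas1 was detected in 93.1% of members, against 71.6% of 5955 progenitors (nuclei outside the gate with at least 2 UMIs of Pdgfra, or 1 with Cspg4 or Vcan). Fyn, a kinase that drives process outgrowth and local Mbp translation, was found in 92.2% of members and 72.8% of progenitors, and Sox10, the lineage's defining transcription factor, in 73.9% and 59.1%. Olig2 was found in 26.0% and 18.5%. Tnr, which encodes the matrix protein tenascin-R, was found in 96.5% and 94.5%. With nearly all nuclei of both sets positive, its detection says little, and its level is compared below. Of the proliferation genes, Top2a and Mki67 were each detected in 4 of the 677 nuclei. Members held a median of 4439 UMIs and progenitors 3689.

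The label held for only part of the members. The 396 nuclei in which Enpp6 or Bmp4 was detected beside Gpr17 are called co-detecting nuclei here, and the 281 with Gpr17 alone are called Gpr17-only nuclei. This split follows the branches of the gate and was made after the data had been seen. Pdgfra was detected in 56 of the 396 co-detecting nuclei (14.1%) but in 206 of the 281 Gpr17-only nuclei (73.3%). Bcas1 was detected in 98.7% of co-detecting and 85.1% of Gpr17-only nuclei. Pooled over all mice, Bcas1 stood at 6021 CPM in co-detecting nuclei and 1310 in Gpr17-only nuclei. Because most Gpr17-only nuclei still held Pdgfra, the whole set is called Gpr17-gated nuclei from here on. Gpr17-only nuclei had a median of 4017 UMIs and co-detecting nuclei of 4974.

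The genes of the gate are given as a description. Of the 677 members, 184 held 1 Gpr17 UMI, 307 held 2 and 186 held 3 or more, up to 11. Gpr17 stood between 370 and 649 CPM in the members of each mouse, with a median of 467, against a mean of 40.2 in progenitors, 0.97 in 38409 mature oligodendrocytes and 0.72 in 10104 microglia. At least 1 Gpr17 UMI was found in 16.2% of progenitors, 0.200% of mature oligodendrocytes, 0.188% of microglia and 0.257% of excitatory neurons. Nuclei with 2 or more Gpr17 UMIs belong to the gate unless they hold neuronal UMIs, so the values in progenitors, mature oligodendrocytes and microglia are capped by the rule and are no independent background. Excitatory neurons, which the gate leaves out for their neuronal UMIs, are not capped in this way. The median UMIs per nucleus of the last 3 sets, at 1871, 1705 and 10404 in the median mouse, differ from the 3734 of progenitors. Just inside the threshold, the 307 nuclei with 2 Gpr17 UMIs had Bcas1 in 88.9%, Pdgfra in 59.9% and Tcf7l2 in 62.5%. Of these, 72 held Enpp6 and 62 held Bmp4. The 281 Gpr17-only nuclei, with 2 or more Gpr17 UMIs and neither partner, had Bcas1 in 85.1%, Pdgfra in 73.3% and Tcf7l2 in 54.8%. Just outside it, 1429 nuclei with 1 Gpr17 UMI and neither partner had Bcas1 in 69.9%, Pdgfra in 68.2% and Tcf7l2 in 41.2%. These are like the Gpr17-only nuclei in lacking a partner, and unlike the 307. A further 30 nuclei were left out for their neuronal UMIs. Thinning every nucleus to 1000 UMIs left 144 members, and dropping the upper limit on genes gave 693.

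Enpp6 (chromosome 8, 46986887 to 47096762, plus strand, GRCm38) and Bmp4 (chromosome 14, 46383520 to 46390669, minus strand) divided the co-detecting nuclei further. Both were found in 203 nuclei, Enpp6 alone in 123 and Bmp4 alone in 70. Pdgfra was detected in 2.46% of the nuclei with both, in 13.8% of those with Enpp6 alone and in 48.6% of those with Bmp4 alone. Pooled over mice, the myelin genes Mobp and Mbp were highest with Enpp6 alone. Mobp, a myelin structural protein of mature cells, stood at 412 CPM there, against 17.3 with both and 19.1 with Bmp4 alone. Mbp, the myelin basic protein, stood at 4050, 1941 and 233 CPM in the same order. The transmembrane protein gene Opalin, a marker of maturing cells, was detected in 15.4%, 3.94% and 4.29% of these nuclei. Bcas1 had another order, with 7362 CPM in nuclei with both, 4847 with Enpp6 alone and 3581 with Bmp4 alone. Of the 123 nuclei with Enpp6 alone, 18 and 14 came from P301S Cgas+/+ replicates 5 and 6. In single mice with 5 or more nuclei of a kind, Mobp ran from 152 to 1064 CPM with Enpp6 alone (11 mice), from 0 to 112 with both (22 mice) and from 0 to 79.1 with Bmp4 alone (5 mice). Mbp ran from 682 to 7441, from 269 to 3123 and from 54.5 to 554 CPM. The Mbp ranges of the first pair thus overlapped and the Mobp ranges did not. Bcas1 ran from 2705 to 7075, from 5178 to 9235 and from 1847 to 5615 CPM, and these ranges overlapped. No test was run, since it was planned for 6 or more mice with 5 nuclei on both the Enpp6 and the Bmp4 side and only 3 had them.

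Gpr17-gated nuclei were compared with progenitors of the same mouse, as UMI sums in 24 mice with at least 10 members and with the mouse as a block. Of 5726 genes tested, 1246 were higher in Gpr17-gated nuclei (21.8%) and 1424 lower (24.9%), or 46.6% called in all. Genes with known roles at the committed stage rose and genes of the progenitor stage mostly fell. Of 25 listed committed precursor genes 21 were tested, of which 20 rose and 0 fell, with a median log2 fold change of 1.87 against 0.01 over all genes. Of 17 tested progenitor genes, 3 rose and 11 fell, with a median of -0.66. These lists leave out the genes of the gates. All lists were chosen with earlier results of these data known, so their counts, here and below, are no independent check of the gate.

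Bcas1 (chromosome 2, 170346991 to 170427845, minus strand) stood at 4193 ± 1311 CPM in Gpr17-gated nuclei and 535 ± 96.2 CPM in progenitors (SD, n = 24). It was higher in 24 of 24 mice, with a log2 fold change of 2.97 ± 0.11 (SE; adjusted p = 6.01e-21). Fyn (chromosome 10, 39368855 to 39565381, plus strand) stood at 3646 and 421 CPM, a log2 fold change of 3.12 ± 0.10. Both were thus raised in every mouse. Tnr (chromosome 1, 159523769 to 159931729, plus strand) rose by less, from 5751 ± 577 to 12107 ± 2154 CPM, a log2 fold change of 1.11 ± 0.06. Nfasc, which encodes the axon and paranode adhesion protein neurofascin, rose by 3.09 ± 0.16 on the log2 scale. Opcml, a GPI-linked adhesion protein gene, rose by 1.18 ± 0.07 and was higher in 24 of 24 mice. Lhfpl3, an abundant progenitor gene, fell by 0.72 ± 0.07 on the log2 scale and was lower in 23 of 24 mice. Ptprz1, a receptor phosphatase of progenitors, fell from 2093 to 1212 CPM and was lower in all 24 mice.

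By the size of the change, the genes that rose most among those with the same direction in all 24 mice were led by Kif19a (chromosome 11, 114765388 to 114790739, plus strand), a kinesin motor gene. Its level per mouse ran from 0 to 278 CPM in all 27 mice, with a median of 162, and from 0 to 12 CPM in progenitors. The ranges met only at the low end, and the log2 fold change over the 24 mice was 5.27 ± 0.19. After it came Rhbdl2 at 4.93, Parvb at 4.34, Frmd4a at 4.07, Rinl at 3.90, St18 at 3.83, Epb41l2 at 3.71, Mbp at 3.35, and Gng4 and Pde9a at 3.33 each. Their known roles differ. Rhbdl2 is an intramembrane protease, Parvb and Epb41l2 tie the actin skeleton to the membrane, and Frmd4a is a scaffold protein of cell polarity. St18 is a zinc finger transcription factor related to Myt1, and stood at 1461 CPM against 107 in progenitors.

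Among genes with the same direction in all 24 mice, those that fell most were led by Cped1 (chromosome 6, 21985916 to 22256404, plus strand). It stood at 2.67 ± 4.86 CPM in Gpr17-gated nuclei and 146 ± 106 in progenitors, with a log2 fold change of -5.61 ± 0.23. Itih5, which binds the matrix sugar hyaluronan, had -4.14, and Cemip, which degrades it, had -3.72. Slc7a11, the cystine importer, had -3.50, Lama1, a laminin chain, -3.21, and Tnc, the matrix protein tenascin-C, -1.85. Rbms3, Sulf1, Mapk4 and Etv4 had values from -1.96 to -1.60.

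Among 18 tested lineage transcription factor genes, 13 rose and 2 fell, with a median of 0.60. Nkx2-2, which restrains the progenitor program, rose by 1.87 ± 0.12 on the log2 scale, from 44.8 to 160 CPM. Myrf, the master regulator of myelin genes, rose by 2.60 ± 0.16, from 16.2 to 95.8 CPM. Tcf7l2 (chromosome 19, 55741820 to 55933654, plus strand), a Wnt pathway effector needed for differentiation, rose by 2.35 ± 0.16, and Zeb2, which blocks inhibitory signals at this stage, by 1.28 ± 0.07. Sox5, which holds progenitors back, fell by 0.52 ± 0.07 and was lower in 23 of 24 mice. Tfeb, which represses myelination and is tied to elimination of premyelinating cells, rose by 1.96 ± 0.12 from 42.1 to 157 CPM. Olig2 stood at 65.7 against 57.8 CPM and did not pass the test (adjusted p = 0.309).

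Myelin genes were on in part. Of 12 tested myelin and maturation genes outside the gates, 10 rose and 0 fell, with a median of 1.23. Mbp stood at 1467 ± 919 CPM in Gpr17-gated nuclei, 139 ± 58.5 in progenitors and 4722 ± 459 in mature oligodendrocytes. Its level in Gpr17-gated nuclei was above progenitors and below mature cells in all 24 mice. Cnp rose from 14.8 to 58.1 CPM against progenitors. Of 3 tested cholesterol synthesis genes 2 rose and 0 fell.

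Receptor and channel genes went the other way. Progenitors receive synaptic input from neurons and carry many receptors and channels. Of 28 tested glutamate and GABA receptor genes, 21 fell and 1 rose, with a median of -0.54. Grm5, a metabotropic glutamate receptor, stood at 755 ± 228 CPM against 1417 ± 154 and was lower in 24 of 24 mice. The AMPA receptor gene Gria2 was the exception, with 1420 CPM against 1008. Of 26 tested ion channel genes, 18 fell and 4 rose, with a median of -0.64. Kcnd2, an A-type potassium channel gene, fell from 4330 to 2216 CPM, and Kcnq3 rose by 0.48 ± 0.07. Of 35 adhesion and guidance genes, 20 fell and 11 rose, among them Gpc5, a glypican gene, with -1.17, and Dscaml1 with 0.72.

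Signaling lists were thinly covered, and their shares are read against the 21.8% of all genes that were higher and the 24.9% that were lower. Of 29 listed BMP, Wnt and Notch genes 14 were tested, of which 3 rose and 4 fell, near those shares. Of 60 listed interferon genes 8 were tested, of which 2 rose, also near the share over all genes, and 0 fell. The receptor gene Ifnar2, which rose, had 79.8 against 26.1 CPM. Of 4 tested elimination and p53 genes 2 rose, among them Mdm2 with a log2 fold change of 0.52. Of 10 listed cGAS-STING genes 2 were tested and 1 rose. Of 22 listed cell cycle genes only 1 had enough counts to test, and it did not pass. Mapt, the gene of tau itself, rose by 1.22 ± 0.07 and was higher in 24 of 24 mice. Whether transgene transcripts count toward it was not tested.

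Markers of other cell types moved with these comparisons. Of 6 tested astrocyte markers 6 were lower in Gpr17-gated nuclei than in progenitors (median -0.94), as were 6 of 6 neuron markers (median -0.60), while no microglia or endothelial marker had enough counts to test. Summed over its 10 genes, the astrocyte list stood between 717 and 6172 CPM in members, the neuron list between 987 and 3892, and the microglia list between 19.7 and 278 CPM. The endothelial markers Cldn5 and Ly6c1 were at 0. Members with under 3 UMIs of 16 markers of other types numbered 275 (40.6%), against 26.3% of progenitors. With only such nuclei, 1070 genes passed against progenitors. That fit held fewer nuclei and fewer mice, with Cgas+/+ replicate 2 and Cgas+/- replicate 2 the only tau-free ones, so its count is not compared further. The part of this RNA in the results was not otherwise tested.

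Against mature oligodendrocytes (nuclei with at least 5 UMIs of a set of myelin genes, among them Mobp, Mog and Mag, that made up 0.5% or more of their UMIs), 7483 genes were tested in the same 24 mice. Of these 1991 (26.6%) were higher in Gpr17-gated nuclei and 2403 (32.1%) lower, 58.7% in all, with a median log2 fold change of -0.09. All 20 tested committed precursor genes rose (median 2.69), as did all 17 tested progenitor genes (median 4.93), and all 22 tested myelin and maturation genes outside the gates fell (median -3.61). Genes of both earlier stages were thus above their level in mature cells. The largest rises among genes with the same direction in all mice were of Cacng4, an AMPA receptor auxiliary subunit, at 643 against 1.45 CPM, and Neu4, a sialidase, at 262 against 0.761 CPM. Susd5, S100a3, Tnr, Ntn1, Sema5b, Afap1l2, Car8 and Megf11 followed with log2 fold changes from 7.92 to 7.12. Tnr stood at 12107 CPM against 67.7. The deepest falls among genes with the same direction in all mice were of AC110241.2 (-4.83), a gene listed by its clone name, and Efhd1 (-4.82). Prr5l (-4.75), Car14, Cyp2j12, Ankub1, Mal, Il33, Abca8a and Dock5 (-4.43) followed. Mal, a myelin vesicle protein gene, stood at 17.8 CPM against 411, and Il33, a nuclear alarmin of mature oligodendrocytes, at 22.7 against 502. Of 27 tested glutamate and GABA receptor genes 14 were higher and 6 lower in Gpr17-gated nuclei.

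**Figure D1:**
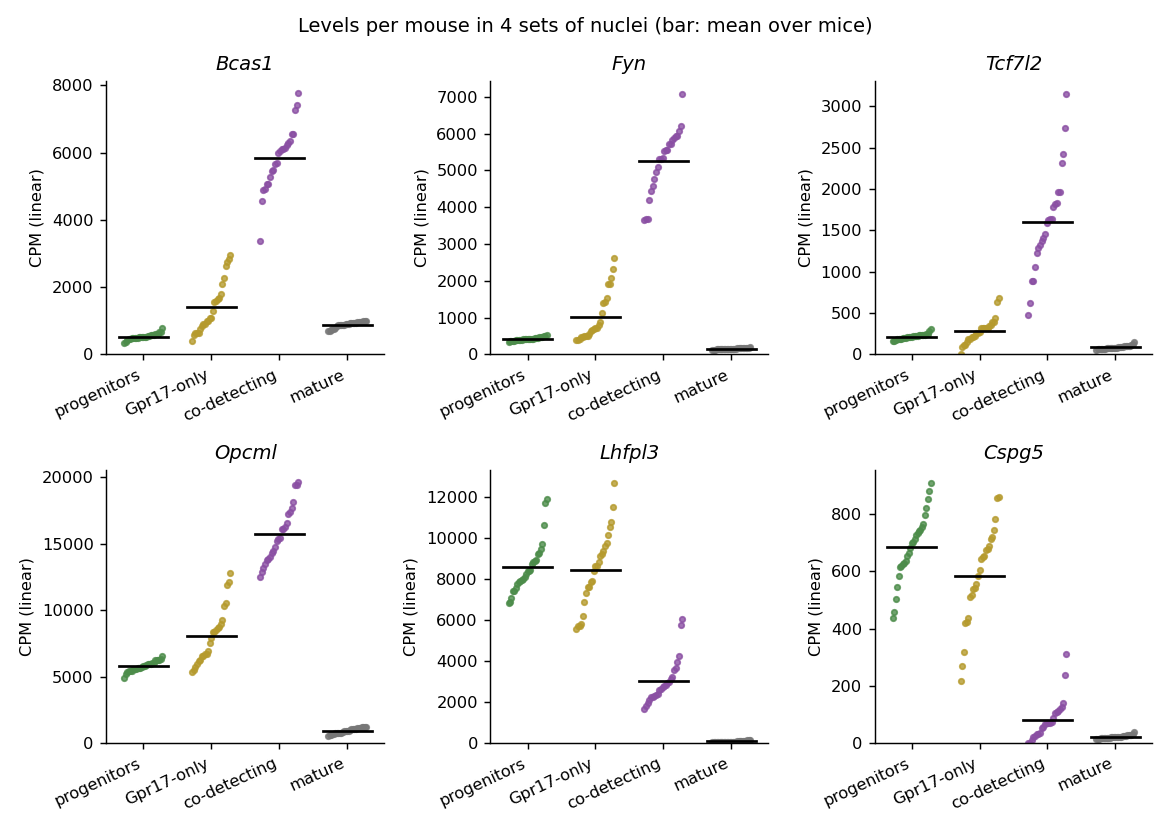
Level of 6 genes, in CPM on the vertical axis, in progenitors, Gpr17-only nuclei, co-detecting nuclei and mature oligodendrocytes. Each point is 1 mouse with at least 5 nuclei of that kind and each bar is the mean. Bcas1 runs from 353 to 775 CPM in progenitors, from 413 to 2945 in Gpr17-only nuclei and from 3374 to 7760 in co-detecting nuclei, and the median of Cspg5 falls from 698 and 603 CPM in the first 2 sets to 69.8 in co-detecting nuclei.

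The branches of the gate differed from each other in most genes that could be tested. They were split on Enpp6 and Bmp4, which mark the committed stage, so a rise of other genes of that stage is no independent check. Between co-detecting and Gpr17-only nuclei of the same mouse, in 23 mice with at least 5 of each, 368 of 1053 genes were higher in co-detecting nuclei (34.9%) and 324 lower (30.8%), 65.7% in all. Bcas1 ran from 3374 to 7760 CPM in co-detecting nuclei, with a median of 6023, from 413 to 2945 in Gpr17-only nuclei, with a median of 1086, and from 353 to 775 in progenitors, with a median of 516. Co-detecting nuclei of every mouse lay above all Gpr17-only values, and Gpr17-only values overlapped those of progenitors. Fyn ran from 3645 to 7079, from 396 to 2632 and from 339 to 531 CPM in the same order. Tcf7l2 ran from 474 to 3146 CPM in co-detecting nuclei and from 0 to 676 in Gpr17-only nuclei, and these ranges overlapped. Its log2 fold change was 2.50 ± 0.15, with 23 of 23 mice higher.

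Among genes with the same direction in all 23 mice, the most raised in co-detecting nuclei was Nhsl2 (chromosome X, 101849385 to 102092055, plus strand). Related to an actin regulator, it had 393 ± 154 CPM against 8.57 ± 16.1. Its ranges, 165 to 833 and 0 to 64 CPM, did not overlap. Frmd4a followed with 10060 against 350 CPM and a log2 fold change of 4.87 ± 0.22, and in mature oligodendrocytes it stood between 224 and 452 CPM. Frmd4a was thus high in co-detecting nuclei alone among the 4 sets. Other large rises were of Tmem108, Epb41l2 (3.39), Mbp (3.27), Pdcd4, Chn2, Nfasc and Map1b (3.08). Map1b encodes a microtubule protein of growing processes, and Chn2 a regulator of the GTPase Rac.

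Among genes with the same direction in all 23 mice, the deepest fall was of Cspg5 (chromosome 9, 110243783 to 110262576, plus strand), a chondroitin sulfate proteoglycan gene. It ran from 0 to 312 CPM in co-detecting nuclei, 217 to 859 in Gpr17-only nuclei and 438 to 910 in progenitors. Its log2 fold change was -2.69 ± 0.23. Kcnip3 (-2.58), Unc13c (-2.52), Kcnh8 (-2.40), Emid1 (-2.38), Chl1 (-2.34), Plpp4, Gpc5, Pde7b and Sorcs3 (-2.14) followed. Of 14 tested committed precursor genes all 14 rose, and of 15 tested progenitor genes 11 fell and 2 rose. Given how the branches were split, these list counts are a description.

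Set against progenitors in turn, the branches gave very different numbers of calls. Co-detecting nuclei differed in 2763 of 5417 genes (51%), 1195 higher (22.1%) and 1568 lower (28.9%). Gpr17-only nuclei, in 25 mice, differed in 5.88% of 5119 genes, 95 higher (1.86%) and 206 lower (4.02%). Numbers of nuclei differ between these fits, so the counts are not compared further. In Gpr17-only nuclei, 11 of 17 tested committed precursor genes rose and 0 fell (median 0.52 against -0.07 over all genes), while 2 of 17 progenitor genes rose and 2 fell (median -0.01). Bcas1 rose by 1.22 ± 0.16 on the log2 scale and Fyn by 1.06 ± 0.16. Tcf7l2 had 0.32 ± 0.13 and did not pass (adjusted p = 0.137). Mbp, with 0.75 ± 0.38, and Lhfpl3, with -0.09 ± 0.06, did not pass either. Summed over Gpr17-only nuclei, committed genes were thus raised while progenitor genes stood at about progenitor level. In single nuclei, Pdgfra was detected beside 2 or more Gpr17 UMIs in 206 of the 281 Gpr17-only nuclei. Of all 262 Gpr17-gated nuclei with Pdgfra, 226 also held Bcas1, which was found in 71.6% of progenitors too. Whether committed genes were raised within the single nuclei that kept progenitor genes was not tested. Of 28 glutamate and GABA receptor genes 8 were lower in Gpr17-only nuclei, with a median of -0.11.

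**Figure D2:**
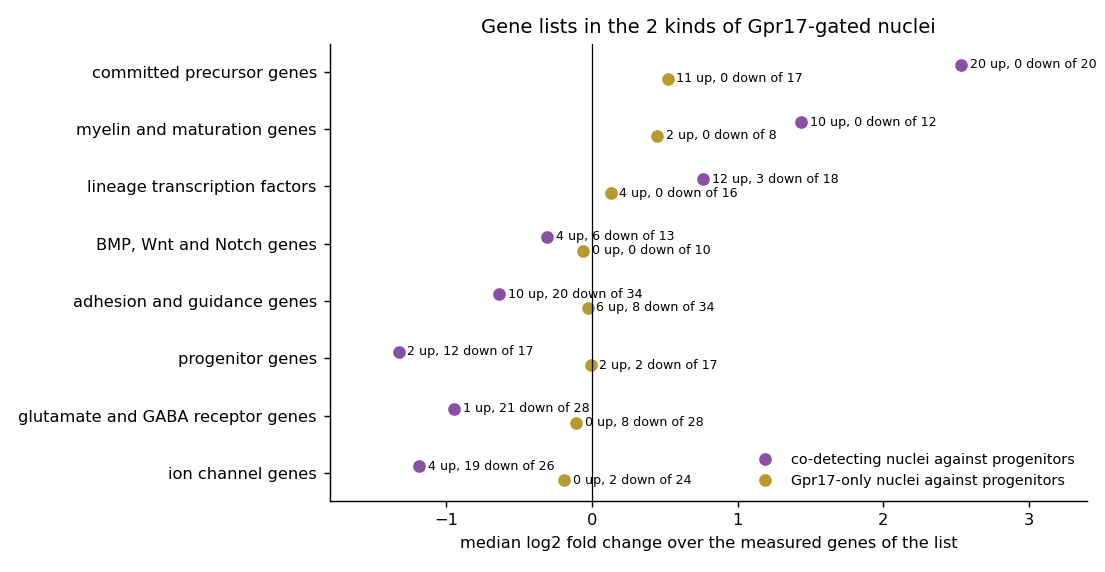
Median log2 fold change against progenitors, on the horizontal axis, of 8 gene lists in co-detecting nuclei and in Gpr17-only nuclei, with the numbers of genes that passed the test in each direction. The committed precursor list has a median of 2.53 in co-detecting and 0.52 in Gpr17-only nuclei, and the progenitor list -1.33 and -0.01.

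Abundance was compared between genotypes as the number of Gpr17-gated nuclei per 100 of these nuclei and progenitors. It was 9.38 in the median Cgas+/+ mouse (range 6.50 to 12.6), 10.5 in P301S Cgas+/+ (4.35 to 19.2), 12.2 in P301S Cgas+/- (2.64 to 21.5) and 11.5 in P301S Cgas-/- (8.37 to 18.3). The groups overlapped widely. P301S Cgas+/+ mice had 10.8 ± 5.32 and Cgas+/+ mice 9.39 ± 2.53 (SD, n = 6 and 5, exact two-sided permutation p = 0.610, adjusted 0.872). All 18 P301S mice had 11.3 ± 5.03 and all 9 tau-free mice 8.65 ± 2.90, a difference of 2.69 (exact permutation p = 0.152, adjusted 0.872), and 7 of 18 P301S mice lay above every tau-free mouse. P301S Cgas-/- differed from P301S Cgas+/+ by 0.923 (exact permutation p = 0.732) and P301S Cgas+/- by 0.586 (exact permutation p = 0.870). As a share of all nuclei the pooled means were 0.325 ± 0.144% and 0.291 ± 0.0983%. As a share of progenitors, Gpr17-gated and mature nuclei together they were 1.42 ± 0.550% and 1.77 ± 0.743%, so the direction depended on the denominator. None of these 12 tests passed, each with an adjusted p of 0.872.

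Females had 12.9 ± 5.29 members per 100 and males 8.79 ± 3.20, and the libraries of version 3.1.0 had 12.2 ± 4.81 against 8.26 ± 3.23 for version 3.0.2. These splits overlap each other and were not tested.

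The percent of members that were co-detecting is given as a description, since the gate itself uses Enpp6 and Bmp4. All 184 members with 1 Gpr17 UMI are co-detecting by construction. Co-detecting nuclei made up 20.7 to 72.2% of the members of tau-free mice, with a median of 41.7%, and 0 to 100% of those of P301S mice, with a median of 64.8%. The ranges overlapped, and the means were 47.7 ± 17.8% (SD, n = 9) and 62.3 ± 20.3% (n = 18). P301S Cgas+/+ mice had 68.6 ± 16.6%, P301S Cgas+/- mice 51.1 ± 29.3%, P301S Cgas-/- mice 67.2 ± 5.87% and Cgas+/+ mice 41.2 ± 19.1%. The extremes were P301S Cgas+/+ replicate 1, whose 9 members were all co-detecting, and P301S Cgas+/- replicate 6, where 0 of 6 were. Among the members with at least 2 Gpr17 UMIs, which enter the gate without Enpp6 or Bmp4, the percent reached at most 58.3% in tau-free mice and ran from 0 to 100% in P301S mice, with means of 30.9 ± 16.8% and 50.1 ± 20.3%. These ranges overlapped too, and the difference was not tested.

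The depth of members overlapped between genotypes but had a higher mean in P301S mice, and this was not tested. The median UMIs per member averaged 4863 ± 987 over P301S mice and 4011 ± 351 over tau-free mice, and those per progenitor 3954 ± 539 and 3527 ± 299. Cell Ranger version moved with it, at 4824 ± 1116 per member in version 3.1.0 and 4274 ± 472 in version 3.0.2. Of the libraries, 6 of 9 tau-free but 6 of 18 P301S ones are of version 3.0.2. Within version 3.0.2 the means were 4505 ± 489 in P301S and 4042 ± 351 in tau-free mice (n = 6 each), and within version 3.1.0 they were 5043 ± 1136 (n = 12) and 3947 ± 418 (n = 3). After thinning each member to 2500 UMIs, which kept 453 of 475 members of P301S mice and 186 of 202 of tau-free mice, the percent co-detecting was 55.1 ± 19.9% and 41.6 ± 18.4%, again as a description.

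**Figure D3:**
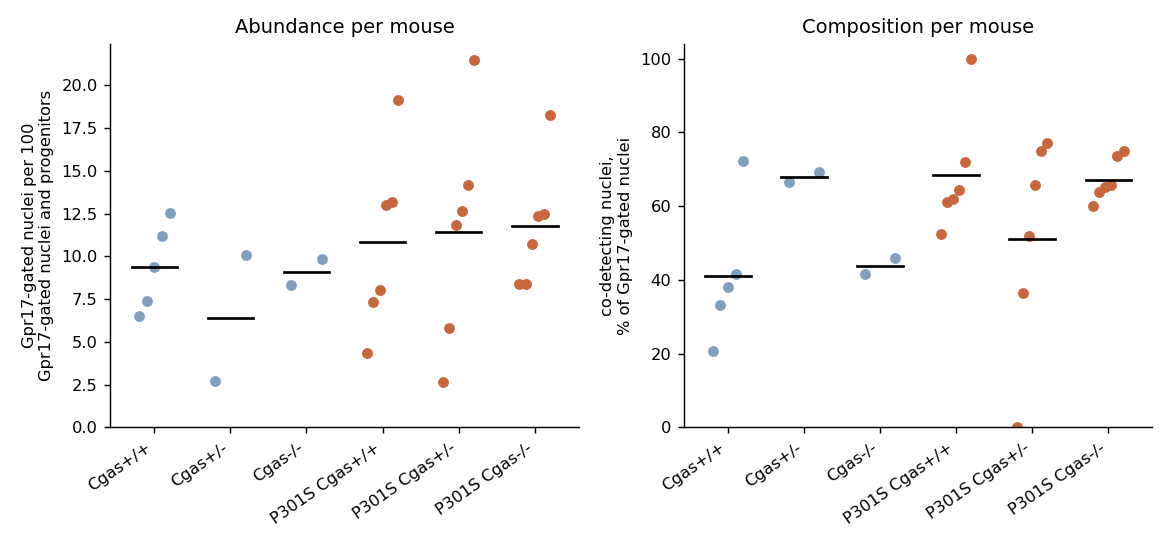
Gpr17-gated nuclei per 100 of these nuclei and progenitors (left, vertical axis) and the percent of them that co-detect Enpp6 or Bmp4 (right, vertical axis) in the 6 genotype groups. Each point is 1 mouse and each bar the mean. The groups overlap on the left, and on the right P301S mice run from 0 to 100% around a median of 64.8%, against 41.7% in tau-free mice.

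Gene expression in Gpr17-gated nuclei was compared between genotypes on UMI sums per mouse with sex as a covariate, in 21 mice of the 4 main groups that had 10 or more members. P301S Cgas+/+ replicate 1, P301S Cgas+/- replicate 6 and Cgas+/- replicate 1 had fewer and were left out of the genotype fits. Between P301S Cgas+/+ and Cgas+/+ mice 13 of 3202 genes passed (0.406%), 6 higher (0.187%) and 7 lower (0.219%), and 487 had an unadjusted p under 0.05. The count ran from 0 to 115 as each mouse in turn was left out, with 115 without Cgas+/+ replicate 1, 75 without P301S Cgas+/+ replicate 4 and 0 without any of Cgas+/+ replicates 2, 3 and 5, P301S Cgas+/+ replicates 3, 5 and 6, and P301S Cgas+/- replicates 2 and 5. It was 1 without sex in the model and 77 with DESeq2. Since UMIs were summed over the gate, fewer nuclei of a kind and less RNA per nucleus cannot be told apart.

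The 10 genes with the smallest adjusted p rose or fell as follows. The noncoding gene C130073E24Rik ran from 110 to 198 CPM in Cgas+/+ mice, with a median of 133, and from 0 to 46.8 in P301S Cgas+/+ mice, with a median of 33.8. The groups did not overlap (replicate 1 of P301S Cgas+/+, at 0, was not in the fit), and the log2 fold change was -1.96 ± 0.37 (adjusted p = 0.0315). The other 9 had an adjusted p of 0.0468. Higher in P301S Cgas+/+ were Eps15 (1.55), an adaptor of endocytosis, Cdyl (1.21), a chromatin corepressor, Man1a2 (1.09), a mannosidase of the Golgi, Gm13052 (1.03), Camsap2 (0.87), which caps microtubule minus ends, and Ago3 (0.87), an Argonaute protein of RNA silencing. Lower were Slc8a3 (-1.51), a sodium-calcium exchanger, Clstn2 (-1.44), a synaptic calsyntenin, and 6030407O03Rik (-1.29). Of the committed precursor genes 0 of 21 passed, with a median of 0.64 against -0.01 over all genes.

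Libraries labelled with fewer Cgas copies under tau gave no calls, and the Cgas counts above did not follow these labels. Between P301S Cgas-/- and P301S Cgas+/+ mice 0 of 3202 genes passed by edgeR and 0 by DESeq2, with 145 at an unadjusted p under 0.05. The 3 with the smallest p were Shc4 (-0.91), an adaptor of receptor tyrosine kinases, Zcchc24 (-0.98) and Setd7 (0.89), a lysine methyltransferase, all with an adjusted p of 0.709. Shc4 ran from 82.4 to 168 CPM in P301S Cgas-/- and from 162 to 316 in P301S Cgas+/+ mice, and Setd7 from 154 to 215 and from 46.8 to 117. Only the Setd7 groups were free of overlap. Between P301S Cgas+/- and P301S Cgas+/+ mice 0 genes passed by either tool, with 105 at an unadjusted p under 0.05, and Efl1 (-1.30), a ribosome assembly GTPase, Gal3st1 (0.68), the sulfotransferase that makes sulfatide, and Fam189a1 (-0.75) had the smallest p.

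Pooling all Cgas genotypes, with Cgas copies and sex in the model, gave more calls. Between 16 P301S and 8 tau-free mice 255 of 2574 genes passed (9.91%), 138 higher in P301S (5.36%) and 117 lower (4.55%). The P301S Cgas+/+ and Cgas+/+ mice are part of this comparison, so it is not independent of the one above. Of 9 tau-free libraries 6 are of version 3.0.2, against 6 of 18 P301S libraries, and with version in place of sex in the model 133 genes passed, of which 129 were among the 255. The count ran from 114 to 345 as each mouse in turn was left out, with 114 without Cgas-/- replicate 1, 139 without Cgas-/- replicate 2 and 142 without P301S Cgas+/+ replicate 6. Ago3 (chromosome 4, 126331704 to 126429556, minus strand) ran from 197 to 446 CPM in tau-free mice, with a median of 269, and from 108 to 810 in P301S mice, with a median of 559. Apart from P301S Cgas+/- replicate 6 at 108, which is not in the fit, the P301S mice lay at or above 362 CPM. The log2 fold change was 0.91 ± 0.14 (adjusted p = 0.000965). Eps15 (chromosome 4, 109280268 to 109387817, plus strand) ran from 20.7 to 99.5 CPM and from 0 to 236, with medians of 46.4 and 135 and a log2 fold change of 1.77 ± 0.29. C130073E24Rik had -1.66 ± 0.28.

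The other genes with the smallest adjusted p were Snx30 (1.03), a sorting nexin of endosomes, and Gm13052 (0.93), which were higher in P301S mice, and Rapgef4 (-1.12), Lrfn5 (-1.03), Ppp2r2b (-0.61), Dcc (-0.79) and Rasgrf1 (-1.07), which were lower. Dcc is the receptor of the guidance factor netrin, Lrfn5 a synaptic adhesion protein, and Rapgef4 and Rasgrf1 are exchange factors of small GTPases.

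C4b (chromosome 17, 34728380 to 34743882, minus strand), a complement component that oligodendrocytes raise in many brain disorders, rose in P301S mice. It ran from 0 to 62.1 CPM in the members of tau-free mice, with a median of 9.28, and from 0 to 254 in those of P301S mice, with a median of 95.3. In all, 13 C4b UMIs came from tau-free and 220 from P301S mice. The groups overlapped, and the log2 fold change was 2.49 ± 0.52 (adjusted p = 0.00703). In progenitors of the same mice C4b ran from 8.05 to 20.7 and from 10.8 to 150 CPM. By group, the members held a mean of 103 ± 86.5 CPM in P301S Cgas+/+, 68.0 ± 48.4 in P301S Cgas+/- and 100 ± 48.0 in P301S Cgas-/-.

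Ago3 and Eps15 did not move likewise in progenitors. Ago3 ran from 144 to 182 CPM in the progenitors of P301S mice and from 157 to 220 in those of tau-free mice, and Eps15 had medians of 38.7 and 40.3 CPM. The Ago3 ranges overlapped, and the difference between the cell sets was not tested.

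The lists are read against the 5.36% of all genes that were higher in P301S mice and the 4.55% that were lower. Of 21 tested committed precursor genes 12 rose and 0 fell, with a median log2 fold change of 0.73. Nfasc had 1.33 ± 0.29 (adjusted p = 0.00882), Tcf7l2 1.18 ± 0.25 (0.00715), Bcas1 0.65 ± 0.17 (0.0156), Fyn 0.62 ± 0.17 (0.0227) and Tnr 0.44 ± 0.10 (0.00882). Of 12 tested myelin genes 5 rose, among them Mbp with 1.27 ± 0.38. With Cell Ranger version in place of sex, Mbp (adjusted p = 0.101), Grm5 (0.0907) and Fyn (0.0501) did not pass. Mbp did not pass with at least 2 Gpr17 UMIs (0.147) or without a filter on low counts (0.140) either, nor did Grm5 without sex in the model (0.0582). Of 20 progenitor genes 1 rose and 4 fell (median -0.29). Of 21 glutamate and GABA receptor genes 4 fell and 17 did not pass (median -0.56), Grm5 with -0.58 ± 0.16, and of 18 ion channel genes 3 fell, Kcnd2 with -0.70 ± 0.18. Snap25 (-0.92) and Syt1 (-0.99), synaptic vesicle fusion genes of neurons, were 2 of 4 tested neuron markers and fell as well, though Snap25 did not pass without sex in the model (0.0778). The summed neuron markers stood at a median of 1462 CPM in P301S and 1911 in tau-free mice, and the summed astrocyte markers at 2420 and 4037. Their part in these results was not otherwise tested.

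The number of calls depended on which nuclei entered and on the model. The genes below were chosen from the comparison over all members and the same mice enter each fit, so a fold of the same direction is no check of them. Among co-detecting nuclei alone, 0 of 2026 genes passed between 15 P301S and 6 tau-free mice by edgeR, with 261 at an unadjusted p under 0.05. With the percent of co-detecting nuclei of each mouse as a covariate, which is built from the Enpp6 and Bmp4 UMIs that the gate uses, 0 of 2574 passed, with 215 at an unadjusted p under 0.05. Eps15 had there 1.56 in place of 1.77, Rapgef4 -1.03 in place of -1.12 and C4b 2.06 in place of 2.49. Bcas1 had 0.30 in place of 0.65 and Kcnd2 -0.17 in place of -0.70. All 26 genes of this comparison that were followed across settings had a smaller fold there. With only nuclei under 3 UMIs of other types' markers, 0 of 1789 passed, with 206 at an unadjusted p under 0.05. Of the tau-free mice, only Cgas+/+ replicate 2 and Cgas+/- replicate 2, at 10 such nuclei each, entered that fit. This count is therefore not compared with that of the whole gate. Eps15 had 2.93 ± 0.86 in place of 1.77 ± 0.29 and Ago3 1.45 ± 0.40 in place of 0.91 ± 0.14, with larger errors. Of the 26 followed genes, 20 had a value there, of which 9 had a smaller fold and 11 one as large or larger. The fits that left nuclei out also held fewer genes. The tau comparison gave 0 calls with co-detecting nuclei, in 5 P301S Cgas+/+ and 3 Cgas+/+ mice, and with the co-detecting percent as a covariate. With other types' markers left out, Cgas+/+ replicate 2 was the only Cgas+/+ mouse with enough nuclei, so no count is given for it.

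The values among co-detecting nuclei, where 0 genes passed, are given as a description, and their difference from those over the whole gate was not tested. Bcas1 had a log2 fold change of 0.12 (adjusted p = 0.677), against 0.65 over the whole gate, and ran from 4920 to 7760 CPM in 16 P301S mice and from 3374 to 6348 in 8 tau-free mice. Eps15 had 1.87 (adjusted p = 0.0575) against 1.77, C4b 3.18 ± 0.87 (0.114) against 2.49, Ago3 0.69 (0.0607) against 0.91 and Tcf7l2 0.86 (0.116) against 1.18. Of the lower genes, Rapgef4 had -1.36 against -1.12, Lrfn5 -1.32 against -1.03 and Grm5 -0.43 against -0.58. Of the 26 genes followed across settings, 24 had a value here, of which 15 had a smaller fold and 9 one as large or larger. Ago3 ran from 444 to 851 CPM in co-detecting nuclei of P301S mice and from 293 to 539 in those of tau-free mice, and C4b from 0 to 254 and from 0 to 46.7. Both pairs of ranges overlapped. Over the committed precursor list the median was 0.31 among co-detecting nuclei and over the myelin list 0.64, against -0.0015 over all 2026 genes.

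**Figure D4:**
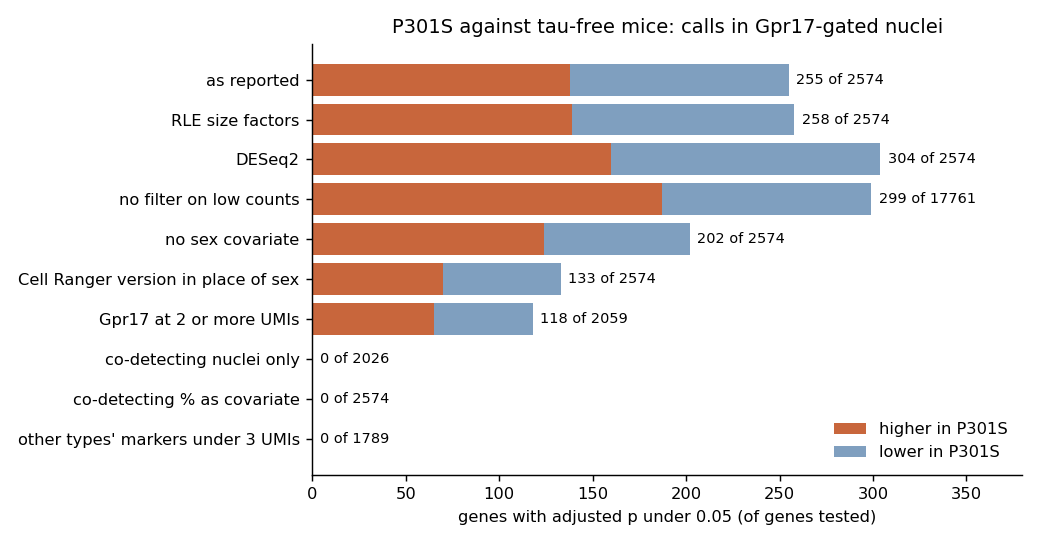
Number of genes that passed the test between P301S and tau-free mice in Gpr17-gated nuclei, higher and lower in P301S, under 10 settings (bars, horizontal axis). The count is 255 in the reported fit. It is 0 with co-detecting nuclei alone, with the co-detecting percent as a covariate, and with nuclei rich in other types' markers left out. In the last setting Cgas+/+ replicate 2 and Cgas+/- replicate 2 were the only tau-free mice.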

How the data were processed

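Nuclei of 27 mouse hippocampi were profiled with a 10x 3' version 3 kit. The authors deposited 1 matrix of raw UMI counts per library, made with Cell Ranger on a pre-mRNA mm10 reference and not normalized. The submitters' processing notes name Cell Ranger 3.1.0 and Seurat 3.0. Introns count, so levels reflect nuclear RNA. Groups came from the genotype labels. The authors' methods remove doublets with DoubletFinder, and the sources used here do not say that the deposited matrices come after that step. No doublet caller was run here. Gates were cut on UMIs: excitatory neurons had at least 2 of Slc17a7, and microglia at least 3 of Csf1r, P2ry12 and Cx3cr1.

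Counts were summed per mouse and gate. Tests used edgeR 4.0.16 (quasi-likelihood, robust, TMM, filterByExpr) in R 4.3.3 with Benjamini-Hochberg adjustment over all genes of a fit and a threshold of 0.05. The SE given with an edgeR log2 fold change was derived from its test, as the absolute fold change over the square root of the F statistic. Gate comparisons had the mouse as a block, since both gates come from 1 mouse. Genotype comparisons took mice with at least 10 nuclei and sex as a covariate. Pooled fits added the number of Cgas copies as a factor. CPM were computed here from the sums, without a pseudocount. Shares were compared by permuting mice exhaustively, two-sided (an exact permutation test, numpy 2.4.6), adjusted over 12 tests. The co-detecting percent was not tested. Gene positions are from GENCODE (GRCm38).

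Named genes between gates were the 10 largest changes in each direction that passed the test, had a mean of at least 50 CPM in the higher gate and the same sign in every mouse, without names of a Gm number or Rik. Between genotypes they were the 10 smallest adjusted p, or 3 where none passed. List examples were those of highest level, and other genes were picked after their values were seen. The members and lists were chosen with earlier results of these data known. All analyses of co-detecting and Gpr17-only nuclei, including their tests, were chosen after seeing the data. Alternatives were DESeq2 1.42.0, other scaling and filters, stricter gates, thinned nuclei, other covariates, Cell Ranger version, and leaving out each mouse. A few genes that the rules would name are not reported here.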

Additional observations from a re-analysis of the deposited data

Results flagged for a closer look

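Within groups of 4 to 10 mice, 32 quantities were screened for a mouse whose gap to the nearest other mouse was large for the group's range by Dixon's 95% limit. That gave 11 of 128 groups and quantities, and chance gives about 1 in 20. All are levels in Gpr17-gated nuclei, and their cause was not tested. P301S Cgas+/+ replicate 1, with 9 members that were all co-detecting, was lowest for C130073E24Rik at 0 CPM (others 29.3 to 46.8) and for Dcc at 393 CPM (others 993 to 1123), and highest for Gal3st1 at 300.7 CPM (others 117 to 148). P301S Cgas+/- replicate 6, with 6 members of which 0 were co-detecting, was lowest for Ago3 at 108 CPM (others 511 to 687) and highest for Fam189a1 at 486 CPM (others 83.2 to 204) and Lrfn5 at 649 CPM (others 118 to 248). Neither library entered the genotype fits. P301S Cgas+/+ replicate 1 did enter the fit of co-detecting nuclei against progenitors, and P301S Cgas+/- replicate 6 that of Gpr17-only nuclei.

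The other values came from libraries that entered the genotype fits. P301S Cgas-/- replicate 5 was lowest for 6030407O03Rik at 98.2 CPM (others 159 to 196) and highest for Fyn at 5106 CPM (others 3860 to 4201). Cgas+/+ replicate 1 was highest for Cdyl at 196 CPM (others 81.6 to 106) and for Tnr at 13131 CPM (others 8464 to 9639), and P301S Cgas+/+ replicate 4 was lowest for Snx30 at 128 CPM (others 295 to 386). The tau comparison gave 115 genes without Cgas+/+ replicate 1 and 75 without P301S Cgas+/+ replicate 4, against 13 with all mice. Of the members of Cgas+/+ replicate 1, 72.2% were co-detecting, against 20.7 to 41.7% in the rest of its group. In P301S Cgas+/+ replicate 4 it was 52.4%, against 61.0 to 100% in the rest of its group. Whether this bears on the counts was not tested.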

How the results depend on the processing

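Small gates limit these results: mice gave 6 to 59 members, few genes of the signaling lists had enough counts, and the Bmp4 side was not tested against the Enpp6 side, since 3 mice had enough nuclei where 6 were planned, so its alternatives were not run. Of 2273 values of single genes under alternatives, 1955 kept their direction and side of the threshold, 312 kept the direction only and 6 changed direction, all against progenitors with Gpr17-only nuclei alone: Apoe 0.17, Frmd4a -0.0103, Gria4 0.0142, Lhfpl3 0.0208, Lrrc4c 0.11 and Sox5 0.0399 on the log2 scale. No paired analysis was possible for genotypes because replicate numbers follow accession order. Without the mouse as a replicate block, 2735, 4494 and 704 genes passed against progenitors, against mature oligodendrocytes and between the branches of the gate, against 2670, 4394 and 692 with it, and no other call was read from it.

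Counts of genes moved with the gate, the filter, the tool and the mice. Against progenitors, 4302 passed without a filter, 1070 with nuclei rich in other markers left out, 717 in tau-free mice, 858 after thinning to 1000 UMIs and 95 with Gpr17-only nuclei in mice with at least 10. Against mature cells the first 4 gave 7735, 2605, 2779 and 2879, and 1678 passed between the branches without a filter. The pooled tau comparison, 255 genes, gave 133 with Cell Ranger version in place of sex and 118 with at least 2 Gpr17 UMIs. It gave 0 with co-detecting nuclei, the co-detecting percent as a covariate or other-marker nuclei left out. All fits with other-marker nuclei left out held fewer mice, with Cgas+/+ replicate 2 and Cgas+/- replicate 2 the only tau-free ones. Leaving out 1 mouse gave 114 (without Cgas-/- replicate 1) to 345, with 139 without Cgas-/- replicate 2 and 142 without P301S Cgas+/+ replicate 6. Ago3 kept 0.84 to 1.01, Eps15 1.60 to 1.89 and C4b 2.26 to 3.14. The tau comparison, 13 genes, gave 108 without a filter, 77 with DESeq2 and 2 with version. With at least 2 Gpr17 UMIs, without sex or with only its groups it gave 1 each. It gave 0 with co-detecting nuclei or the co-detecting percent as a covariate, and 0 to 115 without 1 mouse. With other-marker nuclei left out, Cgas+/+ replicate 2 was its only Cgas+/+ mouse, so no count is given. The heterozygous comparison gave 1 without a filter, and 0 to 0 without 1 mouse. Beyond the gate definitions and the settings' own construction, the cause was not tested.

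Share differences that changed direction did not pass in either fit. Of all nuclei (percentage points), deletion gave -0.110 with other-marker nuclei left out; heterozygous 0.0270 with at least 2 Gpr17 UMIs and 0.0982 in version 3.0.2; pooled tau -0.0286 in version 3.0.2; and tau -0.0387, -0.0786 and, thinned to 1000 UMIs, -0.00742. Of the lineage, deletion gave -0.301 with other-marker nuclei left out and -0.0412 in version 3.1.0, heterozygous 0.0944 with at least 2 Gpr17 UMIs and 0.496 in version 3.0.2, pooled tau 0.130 and tau 0.213 with co-detecting nuclei, and 0.0608 and 0.323 with other-marker nuclei left out. Per 100, deletion gave -1.35 with other-marker nuclei left out and -0.876 in version 3.1.0, heterozygous -0.0274 with co-detecting nuclei and -1.19 in version 3.1.0, and tau -0.380 with at least 2 Gpr17 UMIs and -2.09 in version 3.0.2. The co-detecting percent, not tested, had a deletion difference of -1.34 percentage points that was -10.8 in version 3.0.2 but 3.41 in version 3.1.0, 4.94 with mice of at least 10 members, 1.20 after thinning to 2500 UMIs and 0.465 with at least 2 Gpr17 UMIs. Its heterozygous difference of -17.5 was -1.02 with mice of at least 10 members, and its pooled tau difference of 14.6 was 13.3 in version 3.0.2 and 27.1 in version 3.1.0.

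Leaving out 1 mouse moved the differences as follows. The co-detecting percent ran from -4.58 to 4.94 for deletion, -22.8 to -7.31 for heterozygous, 11.2 to 18.2 for pooled tau and 21.1 to 35.1 for tau. Of all nuclei, in the same order, the ranges were -0.00244 to 0.0766, -0.0568 to 0.0333, 0.00625 to 0.0490 and -0.0221 to 0.0534. Of the lineage they were -0.125 to 0.164, -0.282 to 0.0835, -0.500 to -0.234 and -0.731 to -0.315. Per 100 they were -0.379 to 2.59, -1.42 to 2.34, 1.95 to 3.20 and -0.214 to 2.75.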

Other observations

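Within co-detecting nuclei pooled over mice, the stage markers did not move together. Nuclei with Enpp6 alone held Tcf7l2 at 2463 CPM, those with both genes 1790 and those with Bmp4 alone 577, whereas Bcas1 peaked in nuclei with both. Nuclei with Bmp4 alone also kept Pdgfra most often, in 48.6% of 70. These values pool nuclei of all mice and were not tested. In single mice with 5 or more nuclei of a kind, Tcf7l2 ran from 341 to 4928 CPM with Enpp6 alone. It ran from 389 to 2370 with both and from 249 to 897 with Bmp4 alone, so these ranges overlapped, as did those of Bcas1.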
